A study of Mus musculus with 2 samples.

Results

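The 49 genes described here encode regulators of the mouse cell cycle. They were taken as a list of symbols, covering the cyclins, the cyclin-dependent kinases (CDKs) and their inhibitors, the E2F and pocket proteins and the checkpoint kinases, and 49 of the 49 symbols were found among the 22367 protein-coding genes of the annotation (GENCODE M1 on NCBIM37/mm9). The rule for the list uses no ChIP-seq value, although it was written with earlier results of these data known. Binding of the transcription factor Rfx6 was measured in Min6b1, a line of insulin-producing mouse β cells. The cells received a pCMV-Tag2A-3HA-Rfx6 plasmid by lipofection, and anti-HA ChIP-seq was performed after a further 2 days of culture. For the control, the same antibody was used on cells labelled only as Min6b1. Its growth protocol repeats the text on the plasmid, so the labels do not settle whether these cells were transfected, which bears on what the fold enrichments are relative to. The protein therefore came from a viral promoter at a level that was not measured here, and it was present in addition to the factor the cells make themselves.

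Each condition had 1 library, so no value below has a replicate error and no test was made. The 3HA-Rfx6 library had 33949757 reads after removal of reads at the same position, 9.52 times as many as the 3567375 of the control. The list has no values of the control, which served the authors as the background for calling peaks. The list held 23308 peaks with a median of 73 reads (24 to 3489) and a median fold enrichment of 8.54 over the background. Peaks were assigned to genes by their summit, where the signal is highest. The file holds no expression values, so neither the β cell identity of the cells nor the activity of the 49 genes could be checked from it.

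Cyclins bind CDKs and set which step of the cycle the kinase drives. The D cyclins with Cdk4 and Cdk6 phosphorylate the pocket proteins in G1, which releases E2F factors for the transcription of S phase genes, and the inhibitors of the Ink4 and Cip/Kip families hold these kinases back. Adult β cells divide rarely, and several of these inhibitors are known for restraining their division. The cells used here were a cultured line and not adult β cells, and their division was not measured. Rfx proteins bind DNA through the X-box, a pair of inverted arms separated by a short spacer.

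Of the 108 member summits within 50 kb, 7 had a strict X-box, in which both arms match the Rfx consensus with a spacer of 0 to 3 bases, in the 200 bp around the summit. Of these, 6 are printed first because they show the element the factor is known to read, and because 6 of the 7 lay over 10 kb from the start of the cell cycle gene. The window of E2f5 (chr3:14578560-14578660, plus strand) is the one at a promoter. The windows of Foxm1 (chr6:128365815-128365915, plus strand), Wee1 (chr7:117235394-117235423, plus strand), Cdkn1c (chr7:150614537-150614637, minus strand), Ccnd1 (chr7:152109658-152109758, minus strand) and Trp53 (chr11:69371227-69371327, plus strand) are distal. All are on the strand of the named gene in NCBIM37/mm9, are centred on the summit except for the shorter one at Wee1, and have the X-box in capitals. Each is named by the listed gene within 50 kb, by distance alone. Those of Foxm1, Wee1, Ccnd1 and Trp53 lie inside the neighbouring genes Itfg2, Zfp143, Oraov1 and Efnb3.
E2f5: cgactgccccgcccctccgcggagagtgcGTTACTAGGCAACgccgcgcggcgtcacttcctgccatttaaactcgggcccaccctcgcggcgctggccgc
Foxm1: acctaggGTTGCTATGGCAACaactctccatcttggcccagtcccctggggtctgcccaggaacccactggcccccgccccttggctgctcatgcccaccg
Wee1: cacattctGTTGCTATGGTTACcgcggagg
Cdkn1c: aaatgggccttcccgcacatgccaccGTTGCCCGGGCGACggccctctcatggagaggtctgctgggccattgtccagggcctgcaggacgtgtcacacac
Ccnd1: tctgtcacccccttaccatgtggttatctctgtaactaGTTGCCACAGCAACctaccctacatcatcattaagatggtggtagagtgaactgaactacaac
Trp53: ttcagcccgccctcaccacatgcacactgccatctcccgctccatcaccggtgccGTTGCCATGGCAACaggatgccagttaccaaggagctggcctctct

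The 3 promoter peaks with the most reads had no strict X-box. The 201 bases centred on their summits are shown with the nearest match to a relaxed X-box, which allows more bases in each arm and a spacer of 1 to 3 bases, in capitals. They are Ccna1 (chr3:54859104-54859304, minus strand), E2f7 (chr10:110181963-110182163, plus strand) and E2f3 (chr13:30076553-30076753, minus strand), again on the strand of the gene in NCBIM37/mm9. The match covered the summit of E2f7, and it was 38 bp from the summit of Ccna1 and 49 bp from that of E2f3. A relaxed match is common, as the counts below show, and none of these matches was tested as a binding site.
Ccna1: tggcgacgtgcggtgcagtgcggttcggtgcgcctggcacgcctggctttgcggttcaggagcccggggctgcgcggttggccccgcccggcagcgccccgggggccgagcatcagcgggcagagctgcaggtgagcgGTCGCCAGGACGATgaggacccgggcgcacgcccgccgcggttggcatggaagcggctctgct
E2f7: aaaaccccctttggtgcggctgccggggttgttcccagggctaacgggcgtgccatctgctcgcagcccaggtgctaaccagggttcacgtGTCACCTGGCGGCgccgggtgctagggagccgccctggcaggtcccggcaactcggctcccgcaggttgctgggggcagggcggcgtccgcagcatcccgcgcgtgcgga
E2f3: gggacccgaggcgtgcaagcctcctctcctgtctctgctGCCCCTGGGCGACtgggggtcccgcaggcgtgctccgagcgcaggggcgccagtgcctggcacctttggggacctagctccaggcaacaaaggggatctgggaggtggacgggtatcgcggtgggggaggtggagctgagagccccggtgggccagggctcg

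In all, 12 of the 49 genes (24.5%, 95% Wilson interval 14.6 to 38.1%) had a 3HA-Rfx6 summit within 1 kb of a protein-coding start. They were the cyclins Ccna1 and Ccnd1, the CDK inhibitors Cdkn1a, Cdkn2b and Cdkn2c, the E2F factors E2f3, E2f5 and E2f7, the pocket protein gene Rbl1, the kinase genes Wee1 and Plk1, and Mycn. Of all protein-coding genes, 22.6% had such a summit. The share was 23.3% in genes of similar length and 32.2% in genes of the same promoter CpG class, so 11.4 and 15.8 genes would be found at those shares. The count of 12 thus lay between these values.

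Within 10 kb of a start, 25 of the 49 genes (51.0%, 37.5 to 64.4%) had a summit, against 37.6% of all genes. The 13 that were added were E2f2, Trp53, Cdkn2a, Cdk1, Cdkn1c, E2f1, Aurkb, Cdk6, Ccnd3, Ccnb2, E2f4, Cdc25c and Foxm1, in order of distance. The share was 40.1% in genes of similar length and 47.7% in genes of the same CpG class. Some of these summits lay at the start of a neighbouring gene. When summits at the start of an outside gene (within 1 kb) were left out, 22 members remained, against 35.2% of all genes.

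Within 50 kb of the gene, 42 of the 49 (85.7%, 73.3 to 92.9%) had a summit, against 67.8% of all genes, 72.8% of genes of similar length and 79.4% of genes of the same CpG class. The first 2 of these shares lay below the interval of the members and the last lay inside it. Genes are not replicates, and the intervals cover counting error only. For Ccna2, Ccnd2, Ccne1, Ccne2, Cdk2, Cdk4, Cdkn2d, E2f6, E2f8, Rb1, Rbl2, Cdc25a, Cdc25b, Aurka, Bub1, Chek2 and Mdm2, 17 genes in all, the nearest summit in that range was over 10 kb from a start. The other 7 had none. These were Cdkn1b, which encodes the inhibitor p27, with its nearest summit 57.1 kb away, Ccnh (65.2 kb), Ccnb1 (94.1 kb), Myc (140 kb), Cdk7 (145 kb), Chek1 (207 kb) and Mad2l1 (370 kb). Cyclin H and Cdk7 are partners in the CDK-activating kinase.

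**Figure D1:**
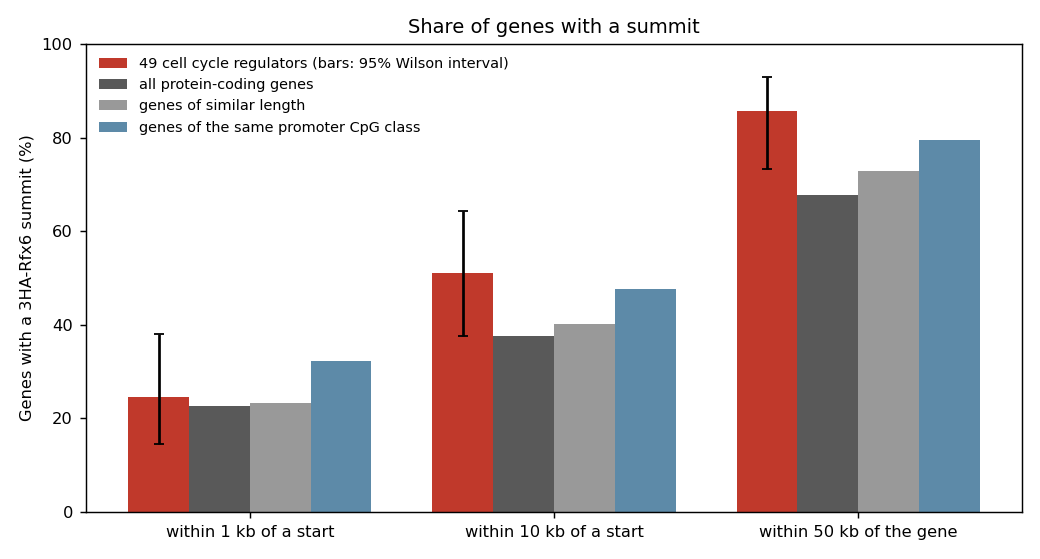
Share of genes (%, from 0) with a 3HA-Rfx6 summit at 3 distances, for the 49 cell cycle regulators (red, with 95% Wilson intervals), all protein-coding genes (dark grey), genes of similar length (light grey) and genes of the same promoter CpG class (blue). At 1 kb the members (24.5%) lay below their CpG class (32.2%), and at 50 kb (85.7%) above all 3 other shares.

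The promoters of the 49 genes were richer in CpG than those of other genes, counted at any annotated start, of which the members had a median of 2 and all genes of 1. This favours genes with more starts and also bears on the CpG class used above. In the 300 bases around a start, 44 members (89.8%) reached an observed to expected CpG ratio of 0.6, against 52.2% of all genes, and the median ratio was 0.95 against 0.63. Of these 44 CpG-rich members, 9 (20.5%) had a summit within 1 kb, against 34.7% of all CpG-rich genes. Within 10 kb it was 21 (47.7% against 50.4%) and within 50 kb 37 (84.1% against 82.6%). The 5 members below that ratio were Ccnd1, Ccnd2, Cdkn2c, Trp53 and Mycn, with ratios of 0.47 to 0.55. Of these, Ccnd1, Cdkn2c and Mycn had a summit within 1 kb (3 of 5, Wilson interval 23.1 to 88.2%), against 9.38% of all CpG-poor genes. Within 50 kb it was 5 of 5 (interval from 56.6%), against 51.8%. These are only 5 genes, and their class rests on the 300 bases at annotated starts alone. A start shared head to head with a neighbour within 1 kb was found for Aurka, Chek2, Foxm1 and Trp53, and 0 of these 4 had a summit within 1 kb, against 35.9% of all genes with such a start. The Wilson interval of this 0 reaches 49%.

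**Figure D2:**
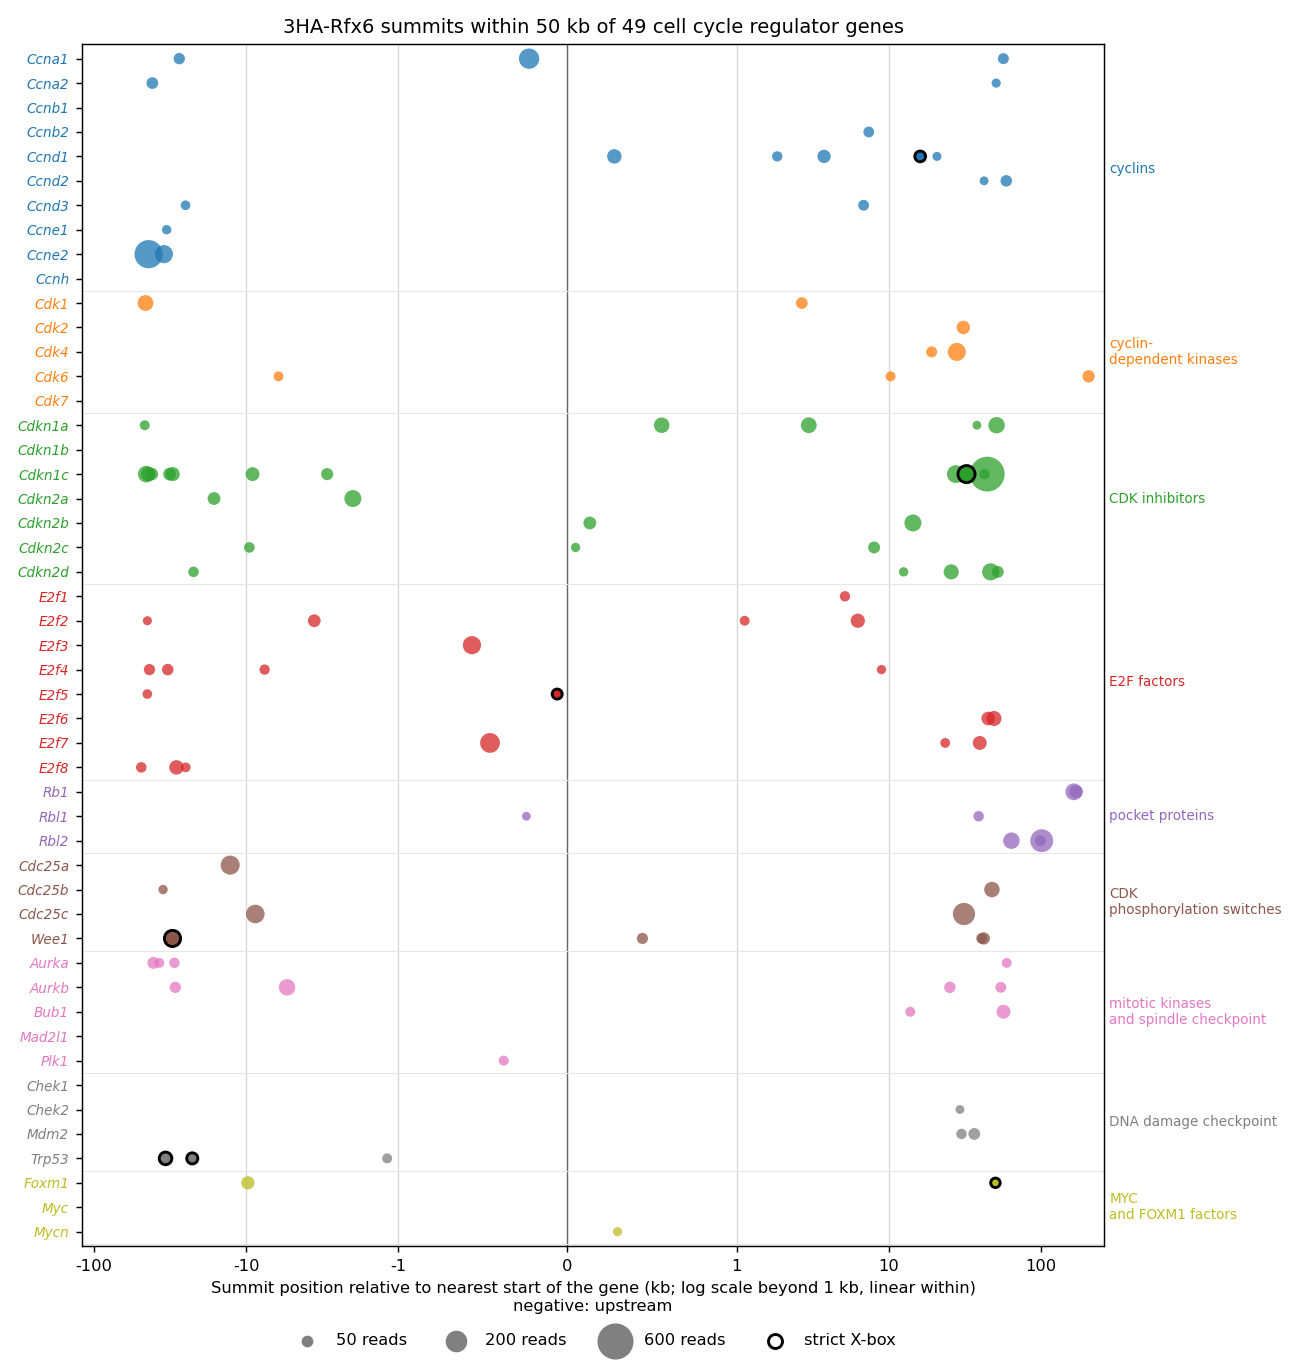
Position of every summit within 50 kb of the 49 genes, relative to the nearest protein-coding start of the gene (kb, log scale beyond 1 kb and linear within, upstream negative), with genes in rows by role. The area of a point is proportional to its reads and a black ring marks a strict X-box. The point with the most reads is the 620-read peak of Cdkn1c, and 7 rows are empty.

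Among the 10 cyclin genes, 2 had a summit within 1 kb of a start, 4 within 10 kb and 8 within 50 kb. These are 20, 40 and 80%, against 22.6, 37.6 and 67.8% of all genes. Ccna1 (ENSMUSG00000027793.2), the A-type cyclin known from the germ line, had the promoter peak with the most reads of all members, 212 reads with a fold enrichment of 15.5, at chr3:54857773-54859951. Its summit lay 227 bp upstream of the start, and 6.90% of all peaks held at least as many reads. The other A cyclin, Ccna2, which acts in S phase and G2 of dividing cells, had 71 reads 41.3 kb upstream, 2 bp from the start of Bbs7, and 43 reads 50.7 kb from its start on the downstream side. Ccna1 and Ccna2 thus differed in where their summits lay, as seen in the map of summit positions.

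Ccnd1 encodes cyclin D1, a partner of Cdk4 and Cdk6. It had 3 summits inside the gene. The first, 277 bp downstream of the start in coding exon 1 (chr7:152124836-152126143), held 107 reads with a fold enrichment of 10.6. The second, in coding exon 2, held 55 reads (5.41-fold) and the third, in intron 3, held 91 reads (7.01-fold). Beyond the gene, on the side of Oraov1, were peaks of 59 and 42 reads, 16.1 and 20.7 kb from the start, and the former carries the X-box printed above with its summit on the element. Cyclin D2 (Ccnd2), which is prominent in islets, had no summit within 10 kb of its start. Its summits within 50 kb of the gene lay 42.2 and 59.1 kb from the start on the downstream side, with 40 and 68 reads, and the former was 730 bp from the start of 9630033F20Rik. Ccnd3 had 60 reads in intron 1 (4.47-fold) and 48 reads 25.0 kb upstream. The 3 D cyclins thus differed in the place of their summits.

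The E cyclins drive entry into S phase with Cdk2. Ccne2 had 408 reads with a fold enrichment of 50.1 at 43.7 kb upstream (chr4:11074096-11075485), outside any protein-coding gene. This summit was 8.78 kb from the start of Trp53inp1, and 0.901% of all peaks held at least as many reads. The false discovery rate that MACS gave this peak was 18.6%, against a median of 3.04% for the 108 member peaks. A peak of 169 reads (23.5-fold) at 34.7 kb upstream was 212 bp from the start of Trp53inp1. Ccne1 had 46 reads (7.18-fold) 33.3 kb upstream. Of the B cyclins of mitosis, Ccnb2 had 60 reads (7.77-fold) in intron 3, 7.38 kb from the start, and Ccnb1 had none within 50 kb.

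None of the 5 CDK genes had a summit within 1 kb (0 of 5, Wilson interval up to 43.4%, against 22.6% of all genes). Within 10 kb 2 had one and within 50 kb 4, against 37.6 and 67.8% of all genes. Cdk1, the kinase of mitotic entry, had 70 reads (12.5-fold) in intron 2 and 128 reads (13.9-fold) 45.8 kb upstream. Cdk6 had 50 reads 6.13 kb upstream and 51 reads in intron 2, and a further 78 reads beyond its far end, 5.80 kb from the start of Fam133b. For Cdk4, the kinase on which β cells are known to depend, the summits of 62 and 167 reads lay 19.1 and 28.0 kb from the start, both inside Agap2. Cdk2 had 92 reads (8.24-fold) 30.9 kb from its start, which was 279 bp from the start of Suox. The CDK summits were thus intronic or outside the genes, and none was at a start of its own gene.

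Of the 7 CDK inhibitor genes, 3 had a summit within 1 kb, 5 within 10 kb and 6 within 50 kb. The Wilson intervals were 15.8 to 75%, 35.9 to 91.8% and 48.7 to 97.4%. The shares of all genes, 22.6, 37.6 and 67.8%, each lay inside them. Cdkn1a encodes p21, a target of p53. It had 123 reads (10.6-fold) in intron 1 of Cdkn1a-003, 557 bp from the nearest start, an inner one (chr17:29230526-29232123). This summit was over 1 kb from the 5′ end of the gene. With the 5′ end alone, 11 members had a summit within 1 kb, and Cdkn1a was not among them. A peak of 127 reads (13.9-fold) lay 463 bp beyond the end of the gene. Peaks of 51, 40 and 138 reads lay 46.4 kb upstream and 37.9 and 51.0 kb from the start on the downstream side.

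Cdkn1c (ENSMUSG00000037664.6) encodes p57, an inhibitor in an imprinted cluster that is expressed from the maternal copy. It had the most summits of any member, 11 within 50 kb. The median was 2 for the members and 1 for all genes, whereas the mean was 2.24 and 2.42. In the order of position, the 7 upstream held 142, 105, 82, 83, 102, 98 and 75 reads and the 4 downstream held 162, 149, 54 and 620 reads. Upstream, the 82-read summit was 173 bp from the start of Phlda2, and those of 105 and 142 reads were 2.38 and 3.78 kb from it. Those of 83 and 102 reads lay inside Slc22a18, and that of 98 reads was 3.62 kb from its start. The 620-read peak (chr7:150598537-150603414) lay 41.6 kb beyond the end of Cdkn1c inside Kcnq1, the neighbouring potassium channel gene of the cluster, with a fold enrichment of 45.7. Only 0.163% of all peaks held as many reads, and its false discovery rate, which MACS estimates by exchanging ChIP and control, was 22.2%. The peak nearest to the start of Cdkn1c held 75 reads (10.4-fold) and lay 2936 bp upstream. The gene itself, of 2.70 kb, held no summit, and the X-box of this locus was in the 149-read peak, 11 bp from its summit.

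The Ink4 inhibitors block Cdk4 and Cdk6. Cdkn2a and Cdkn2b are neighbours on chromosome 4 and shared both of their summits. The one of 148 reads (30.4-fold, chr4:88941907-88943146) lay between them, 1989 bp upstream of the nearest start of Cdkn2a and 9.65 kb beyond the end of Cdkn2b. The one of 84 reads (9.65-fold) lay 132 bp downstream of the start of Cdkn2b, in the untranslated part of exon 1. Cdkn2c had 44 reads (6.59-fold) 48 bp downstream of its start, also in untranslated exon 1, 73 reads 8000 bp from its nearest start on the downstream side, and 58 reads at 9.53 kb upstream, 129 bp from the start of Faf1. Cdkn2d had 5 summits of 45 to 151 reads, of which the nearest was 12.5 kb from its start, inside Kri1. Those of 117, 73 and 57 reads were 231 bp, 101 bp and 1.04 kb from the starts of Atg4d, Keap1 and Ap1m2. That of 151 reads lay inside S1pr5.

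**Figure D3:**
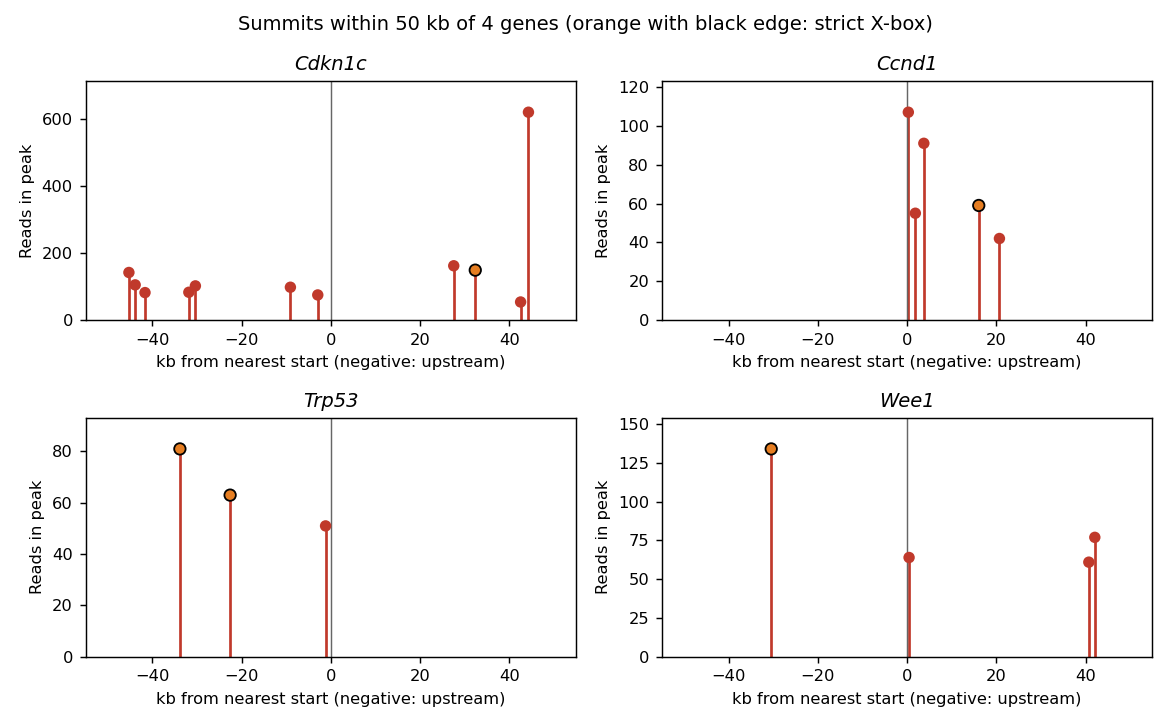
Reads in each peak (vertical axes, from 0, each with its own scale) against summit position relative to the nearest start (kb, upstream negative) within 50 kb of Cdkn1c, Ccnd1, Trp53 and Wee1. Orange points with a black edge carry a strict X-box. At Cdkn1c the 620-read peak is the highest of 11, and at Trp53 the 2 peaks farther from the start carry the X-boxes.

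All 8 E2F genes had a summit within 50 kb (8 of 8, Wilson interval from 67.6%, against 67.8% of all genes), 6 had one within 10 kb (interval 40.9 to 92.9%, against 37.6%) and 3 within 1 kb (13.7 to 69.4%, against 22.6%). Of the 6, E2f4 had its summits within 10 kb at the starts of other genes. All 8 E2F genes have a CpG-rich promoter. Of all CpG-rich genes, 34.7% had a summit within 1 kb, 50.4% within 10 kb and 82.6% within 50 kb. Each of these shares lay inside the interval of the E2F genes. E2f7 (ENSMUSG00000020185.10), an atypical E2F that represses transcription, had a promoter peak of 200 reads at chr10:110181538-110182745, 458 bp upstream of a start, with a fold enrichment of 39.8 that 1.08% of all peaks reached. It was the highest fold enrichment of the 12 promoter peaks. Further peaks of 49 reads in intron 7 and of 99 reads in the untranslated part of exon 13 lay in the same gene. The other atypical factor, E2f8, had summits of 49, 107 and 57 reads 24.9, 28.7 and 48.9 kb upstream and none nearer.

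E2f1, E2f2 and E2f3 are the activators among the E2F factors. E2f3 had 170 reads (13.7-fold) in intron 1 of E2f3-001, 565 bp upstream of its inner start (chr13:30076115-30077938). E2f2 had 3 intronic summits, of 50, 83 and 103 reads, the first of them 1129 bp from a start and the last in intron 6. E2f1 had 55 reads (6.83-fold) in intron 2. All summits of E2f1 and E2f3 within 50 kb, 1 for each, were thus intronic.

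Of the others, E2f5, which works with pocket proteins as a repressor, had 51 reads (7.06-fold) at chr3:14578070-14579193. Its summit lay 61 bp upstream of the start and 9 bp from the X-box printed above, and 75.3% of all peaks held at least as many reads. It was the only one of the 49 promoters (2.04%) with a strict X-box in the 300 bases around a start, against 1.84% of all genes. Among all genes, 60.8% of the 411 with such an X-box had a summit within 1 kb, against 21.9% of those without. E2f4 had 54 and 44 reads within 10 kb, 573 bp from the start of 4931428F04Rik and 854 bp from that of Elmo3. E2f6 had 95 and 116 reads 44982 and 49048 bp from its start.

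The pocket proteins restrain E2F factors, and 1 of their 3 genes had a summit within 1 kb, 1 within 10 kb and 3 within 50 kb. The shares of all genes were 22.6, 37.6 and 67.8%. Rbl1 (p107) had the promoter peak with the fewest reads, 39 (5.41-fold), 243 bp upstream of its start, and 56 reads in intron 16. Rb1 had 144 reads (23.3-fold) and 91 reads (7.48-fold), the nearer 21.9 kb beyond its end, both inside Rcbtb2. Rbl2 (p130) had 139 reads 10.1 kb beyond its end, 32 bp from the start of Aktip, and 267 reads 47.2 kb beyond its end (chr8:93694407-93695673). The latter had a fold enrichment of 53.9, the highest of the 108 peaks, which 0.262% of all peaks reached.

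Cdc25 phosphatases activate CDKs and Wee1 inhibits them by phosphorylation. Cdc25a had 1 summit, of 187 reads (35.3-fold), 12.7 kb upstream and outside any protein-coding gene. Cdc25c had 177 reads (31.5-fold) 8.71 kb upstream, which was 683 bp from the start of Fam53c, and 252 reads (5.75-fold) 12.6 kb beyond its end, 1 bp from the start of Gfra3. Cdc25b had 45 reads 35.1 kb upstream and 123 reads 401 bp from the start of Mavs. Wee1 had 64 reads (6.36-fold) in coding exon 1, 443 bp from the start, whereas its peak with the most reads, 134 (24.3-fold), lay 30.5 kb upstream inside Zfp143 with the X-box at the summit. Peaks of 61 and 77 reads lay 40.7 and 42.1 kb from its start on the downstream side. By count, 1 of these 4 genes had a summit within 1 kb, 2 within 10 kb and 4 within 50 kb. The shares of all genes were 22.6, 37.6 and 67.8%.

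Of the 5 genes of mitotic kinases and the spindle checkpoint, 1 had a summit within 1 kb, 2 within 10 kb and 4 within 50 kb. The shares of all genes were 22.6, 37.6 and 67.8%. Plk1, which encodes a kinase of mitotic entry, had 52 reads (6.12-fold) 377 bp upstream. Aurkb had 138 reads (14.8-fold) 5.39 kb upstream, outside any protein-coding gene. It also had peaks at 13 bp from the start of Tmem107 (67 reads), 111 bp from that of Per1 (61 reads) and 356 bp from that of 1500010J02Rik (66 reads). Bub1 had 51 reads in intron 9, and Aurka had 4 distal summits of 50 to 73 reads, 3 of them inside Cass4.

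Of the 4 genes of the DNA damage checkpoint, 0 had a summit within 1 kb (Wilson interval up to 49%), 1 within 10 kb and 3 within 50 kb. The shares of all genes were 22.6, 37.6 and 67.8%. Trp53, which encodes p53, had 51 reads (4.0-fold) 1185 bp upstream, 150 bp from the start of Wrap53. Its summits farther upstream included one of 63 reads (8.71-fold) inside Efnb3, 22.6 kb from the start, with the X-box printed above 5 bp from the summit. Mdm2, the ubiquitin ligase of p53, had 56 and 71 reads inside Cpm, and Chek2 had 40 reads (5.41-fold) in intron 13. Of Myc, Mycn and Foxm1, 1 had a summit within 1 kb, 2 within 10 kb and 2 within 50 kb, beside the same shares of all genes (22.6, 37.6 and 67.8%). Mycn, a growth-promoting factor, had 43 reads (7.77-fold) in intron 1, 296 bp from a start. Foxm1, known as a factor of β cell replication, had 91 reads (14.6-fold) 9.75 kb upstream inside Tulp3, and the 46-read peak with the X-box 39954 bp beyond its end inside Itfg2.

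The 12 promoter peaks had a median of 74 reads (39 to 212), against 82 for the 4903 peaks within 1 kb of any protein-coding start, and a median fold enrichment of 8.71 against 8.94. Of the 12, 4 reached the upper quartile of all peaks (115 reads), as did 1556 of the 4903. By place, 6 summits lay upstream and 6 downstream of the start, at a median distance of 286 bp, whereas 62.3% of the 5359 pairs of a gene and a summit lay downstream over all genes, at a median distance of 269 bp. None of the 12 was also within 1 kb of the start of another gene, against 9.18% of the 4903.

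**Figure D4:**
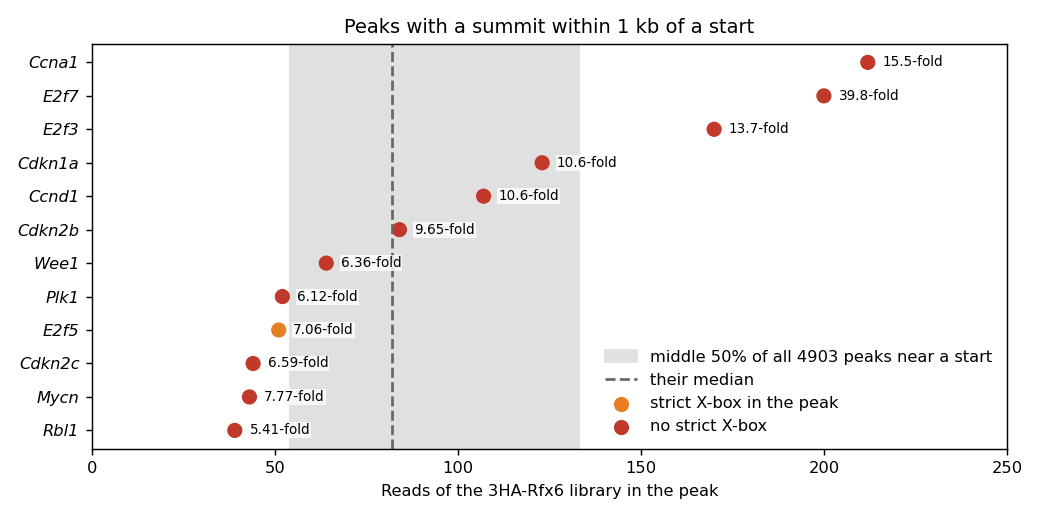
Reads of the 3HA-Rfx6 library (horizontal axis, from 0) in the 12 peaks with a summit within 1 kb of a member's start, with their fold enrichment as text. The grey band is the middle 50% of all 4903 such peaks, the dashed line their median of 82 reads, and orange marks the strict X-box of E2f5. Ccna1, E2f7 and E2f3 lie above the band, and Plk1, E2f5, Cdkn2c, Mycn and Rbl1 below it.

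The 108 summits within 50 kb had a median of 69 reads (39 to 620) and of 8.16-fold enrichment, against 73 reads and 8.54-fold over all peaks. Counted per gene, 22 lay inside a member, 16 of these in introns, 3 in coding exons and 3 in untranslated exon parts, and 46 lay upstream and 42 downstream. Of these, 21 were within 1 kb of the start of a gene outside the list. At least 5 summits lay within 50 kb of Cdkn1c, Ccnd1, Cdkn1a and Cdkn2d (8.16% of the members, against 18.5% of all genes). Some of these summits were inside or near neighbouring genes.

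The 7 peaks with a strict X-box made up 6.48% of the 108, and over all peaks the share was 6.42%. A relaxed X-box was found in 48 (44.4%), where 45.9% of all peaks held one. The 7 lay within 50 kb of E2f5, Wee1, Cdkn1c, Ccnd1, Foxm1 and Trp53, had 46 to 149 reads, and 5 of them lay inside another protein-coding gene. The 4 member peaks with the most reads, at Cdkn1c, Ccne2, Rbl2 and Cdc25c, had no strict X-box. The shares with an X-box thus lay near those of all peaks.

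The promoters were also searched, on both strands, for 3 elements known from cell cycle genes. An E2F site (TTTCGCGC or TTTGGCGC) was found in 7 of 49 (14.3%), namely E2f1, E2f2, E2f8, Rbl1, Cdc25a, Cdk1 and Mycn, against 1.34% of all promoters of the same length. The CHR element (TTTGAA) was found in 13 (26.5% against 23.1%) and CCAAT in 32 (65.3% against 46.9%). As for CpG, any start of a gene could hold the letters. Of the 12 members with a summit within 1 kb, 2 had the E2F site (Rbl1 and Mycn), as did 5 of the other 37. CCAAT was found in 5 of the 12 (41.7%) and in 27 of the 37 (73.0%), whereas over all genes the shares were 47.9% with and 46.6% without a summit.

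Of 58 other cell cycle genes, which cover replication licensing, the anaphase-promoting complex, the DREAM complex and the spindle, 18 (31.0%) had a summit within 1 kb, 25 (43.1%) within 10 kb and 46 (79.3%) within 50 kb. In genes of similar length these shares were 25.2, 41.3 and 73.6%, and in the same CpG class 33.0, 48.6 and 80.5%. The promoter peaks with the most reads were at Nek2, a centrosome kinase (536 reads, 61.5-fold), Mybl2 (186 reads, 11.8-fold), Fzr1 (179 reads, 22.1-fold), Mcm4 (160 reads, 20.01-fold) and Lin9 (139 reads, 21.4-fold). The peak of Nek2 held more reads than any promoter peak of the 49 regulators, of which the highest was that of Ccna1.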

How the data were processed

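The data are peaks called by the authors in Min6b1 cells transfected with 3HA-Rfx6. According to the submitters' processing notes, the authors used CASAVA 1.8.2, Bowtie and MACS 1.4.2 on the mm9 genome. The control has no values in the list and was used by the authors only in peak calling. The deposited count is the number of 3HA-Rfx6 reads in a peak, without normalization. The deposited fold enrichment is a ratio to the background that MACS expected from the control and the local signal, the deposited score is minus 10 times the log10 of the p-value (cutoff 1e-05), and the deposited FDR is in percent. Reads at the same position were reduced to 1 by MACS. The control held far fewer retained reads, and the effect of this on the fold enrichments was not tested.

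Summits were placed on NCBIM37 with GENCODE M1. Distances to a start used every protein-coding transcript, and genes of the mitochondrial chromosome were left out. Genes of similar length were the 200 nearest in length to each member, members left out, averaged. A promoter was the 250 bases before to 50 after a start, and it was CpG-rich at an observed to expected ratio of 0.6 at any start. X-boxes were searched on both strands in the 200 bp around a summit. Wilson intervals have a confidence level of 95% and cover counting error only. With 1 library per condition there was no test. Genes were named by where their summits lay, with values for each promoter peak, the 10 peaks with the most reads and those with a strict X-box (apart from 1 that is not reported here), and further members were described after their values were seen. The members and the lists were chosen with earlier results of these data known. The steps ran in Python 3.11.15 (pyfaidx 0.9.0.4, numpy 2.4.6, scipy 1.17.1, pandas 2.3.3, matplotlib 3.10.9). The distance and X-box steps were tested on simulated data, and the shares and the E2F, CHR and CCAAT searches were not. Stricter peak sets, other distances, the 5′ end alone, peak overlap and other X-box searches were the alternatives.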

Additional observations from a re-analysis of the deposited data

How the results depend on the processing

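The counts of members with a summit depended most on the peak set. The stricter sets hold fewer peaks, and the shares of all genes fell in them too. With the 50% of peaks with the highest scores, 6 members had a summit within 1 kb and 14 within 10 kb (13.3% and 23.1% of all genes), with a fold enrichment of at least 10 it was 5 and 13 (9.88% and 18.6%), and with the 50% of peaks with the most reads 6 and 13 (13.3% and 23.2%). The count within 50 kb was 29 to 31 in these sets (45.6 to 51.1% of all genes). The median of the promoter peaks was 146 reads in the set with the highest scores (121 over all such peaks), 64 reads with the 5′ end of the gene alone, and 8.71-fold (against 8.94) where fold enrichment replaced reads. The relaxed X-box was found in 48 of the 108 member peaks (44.4%), against 45.9% of all peaks. The other distances, the 5′ end alone, peak overlap and X-box windows of 100 and 400 bp left each count within 1.5 times the reported one. Comparison with autosomal genes and with CpG-rich promoters, and the count without summits at the starts of genes outside the list, were added after seeing the data. No paired analysis was possible because each condition had 1 library, and for the same reason no replicate could be left out. The depth of the control limits the background, and a summit below the peak caller's cutoff would not be listed.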
